A study of Mus musculus with 6 samples.

Results

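A set of 8 genes was followed in lysozyme-expressing dendritic cells (LysoDCs) of the mouse Peyer's patch: Spp1, Mmp12, Mmp13, Mmp14, Plaur, Plau, F10 and Timp2. The set holds genes of extracellular proteases, a metalloproteinase inhibitor (Timp2), the urokinase receptor (Plaur) and osteopontin (Spp1). The members were chosen as genes, and all 8 had at least 1 array probe whose RefSeq accession names them, 12 probes in all. Of these, 7 genes were among the 4488 genes bright enough to test and Mmp14 was not. The cells were sorted as positive for the C5a receptor (C5aR+) after bead enrichment of CD11c+ Peyer's patch cells and kept in culture with CSF-1 at 0.1 µg/mL and a second factor, which the labels write as CFS-2, at 0.5 µg/mL. One group of 3 samples received 0 nM C5a (untreated) and the other group of 3 received 100 nM recombinant C5a for 3 h. The culture time of the untreated samples, the strain, age and sex of the mice and whether a sample pooled animals are not given in the sources used here. Nothing says that the samples came from separate animals or cultures, so the p-values below refer to differences among these 6 samples, part of which may be technical.

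Mononuclear phagocytes remodel the matrix around them with secreted and membrane-bound proteases. Matrix metalloproteinases are zinc enzymes made as inactive precursors: Mmp12 is macrophage elastase, Mmp13 is a collagenase of fibrillar collagen, and Mmp14 sits in the membrane, where together with the inhibitor Timp2 it activates the precursor of Mmp2. Plau is urokinase, a serine protease that turns plasminogen into plasmin, and Plaur is its GPI-anchored receptor (the receptor of urokinase, not of plasminogen itself). F10 is coagulation factor X, a vitamin K-dependent serine protease, and Spp1 encodes osteopontin, a secreted phosphoprotein that binds integrins and Cd44. C5a is the small peptide cut from complement component C5, and its receptor signals through G proteins to pathways that include MAP kinases and the transcription factor AP-1.

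Since C5a receptor signalling is known to reach AP-1, the 250 bases before each RefSeq start site were read for the letters of AP-1 and of 4 other motifs. RefSeq sequences on GRCm38.p6 matched 7 of the 8 members, with 9 start sites, and Plau had none in the table. TGAGTCA on either strand (the reverse reads TGACTCA) stood in 1 window each of Mmp12, Mmp13 and Plaur, and in 4.46% of all 32851 windows of this length. The RUNX letters TGTGGTT (reverse AACCACA) stood in those of Spp1 and Mmp13 and in 4.40% of all windows, and TATAAA (reverse TTTATA) in the same 2 and in 12.4%. The ETS letters CAGGAAG (reverse CTTCCTG) and the E box CACGTG were in no member's window, against 10.8% and 6.02% of all windows. No matches overlapped each other. The 4 windows with matches are shown because they belong to the genes whose levels follow, with the matched letters in capitals.
Mmp13 (chr9:7272264-7272513, plus strand): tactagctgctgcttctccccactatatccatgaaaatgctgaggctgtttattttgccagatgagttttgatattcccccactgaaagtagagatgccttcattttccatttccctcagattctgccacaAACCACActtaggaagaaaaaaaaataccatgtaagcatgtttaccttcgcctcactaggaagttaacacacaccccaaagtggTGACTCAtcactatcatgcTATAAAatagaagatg
Plaur (chr7:24462233-24462482, plus strand): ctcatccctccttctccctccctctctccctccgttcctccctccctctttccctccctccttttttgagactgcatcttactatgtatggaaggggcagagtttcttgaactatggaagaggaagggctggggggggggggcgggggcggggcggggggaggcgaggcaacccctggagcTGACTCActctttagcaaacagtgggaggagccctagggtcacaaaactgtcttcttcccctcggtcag
Mmp12, the start farther 3′ of the 2 (chr9:7347124-7347373, plus strand): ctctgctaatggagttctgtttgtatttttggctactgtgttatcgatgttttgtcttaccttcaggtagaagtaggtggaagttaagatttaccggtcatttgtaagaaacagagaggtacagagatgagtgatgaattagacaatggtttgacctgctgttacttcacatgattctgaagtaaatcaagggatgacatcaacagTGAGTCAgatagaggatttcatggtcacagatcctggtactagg
Spp1, the start farther 5′ of the 2 (chr5:104434861-104435110, plus strand): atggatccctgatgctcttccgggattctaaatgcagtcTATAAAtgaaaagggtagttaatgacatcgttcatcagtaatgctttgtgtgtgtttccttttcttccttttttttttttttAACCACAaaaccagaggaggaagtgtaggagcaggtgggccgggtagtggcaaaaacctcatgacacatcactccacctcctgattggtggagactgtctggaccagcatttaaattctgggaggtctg
The AP-1 letters began 35 bases before the start in Mmp13, 69 in Plaur and 44 in Mmp12. In Spp1 the RUNX letters began 129 bases and TATAAA 211 bases before the start, and in Mmp13 119 and 16 bases before it. These matches are letters only, and no binding was measured.

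Levels below are log2 processed signals less each array's 75th percentile, taken over the 2370 probes that every array measured well above background. Differences are C5a minus untreated, from limma on all 4488 genes with Benjamini-Hochberg adjustment, n = 3 per group. Of these, 3276 are named genes, and each of the rest is a probe without a gene name, counted as a gene. Shares of all genes include these unnamed probes. Levels of different genes come from different probes and are not set against each other. The arrays were dim: 2727 to 6959 of 56605 probes were well above background per array, and the unscaled 75th percentile ran from 109 on untreated 3 through 154 on C5a 3, 163 on untreated 1, 254 on C5a 1 and 377 on C5a 2 to 460 on untreated 2. The sorted identity was checked with marker lists. Of 12 phagocyte and LysoDC markers 8 were well above background on at least 3 arrays, among them Lyz1, Lyz2, Itgax, Csf1r, Cd68 and Sirpa on all 6, while Cx3cr1, Mertk and Fcgr1 were among those on none. C5ar1, the receptor of the sort, reached that mark on 1 untreated and 2 C5a arrays, with a difference of -0.28 (SE 0.51). The summed level of the phagocyte list on a linear scale ran from 7.40 to 12.5 in untreated and from 7.82 to 15.4 in C5a samples. Lyz1 was the largest term of this sum on all 6 arrays. None of 7 T cell, 7 fibroblast or 5 endothelial markers was well above background on any array, and 1 of 8 epithelial markers was on 1 array. Ccr7 of the conventional dendritic cell list and Csf3r of the neutrophil list reached it on all 6 arrays, and Cd79b of the B cell list on 3, while Flt3, S100a8, S100a9, Ms4a1 and Cd79a were on 0. The summed level of the neutrophil list ran from 1.40 to 3.07 in untreated and from 2.06 to 2.64 in C5a samples, that of the conventional dendritic cell list from 0.330 to 1.95 and from 0.367 to 1.53, and that of the B cell list from 0.113 to 0.337 and from 0.104 to 0.254. These sums include markers below background, and Csf3r and Ccr7 were the 1 detected marker of the first 2 lists. The T cell list, with 0 detected, still summed to 0.0702 to 0.2625 in untreated samples, a range that overlaps the B cell sum. On the same array, the T cell sum was above the B cell sum for number 1 and below it for numbers 2 and 3, in both groups. The part of these cells in the results was not tested.

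No member changed with C5a by the test. Of the 7 tested, 0 had an adjusted p under 0.05, where 0% of all 4488 genes did, both without and with the replicate number as a block (lowest adjusted p over members 0.9992 and 0.926). At an unadjusted p under 0.05, 0 members stood without the block, where 2.34% of all genes did, and 1 with it (Spp1), where 4.23% did. For none of the 7 did the 3 C5a samples lie wholly above or below the 3 untreated ones, which 3.36% of all genes did on the higher side and 2.32% on the lower side. The same-numbered samples deviated from their group means together, so the difference within each number is given beside the group means. In both groups number 3 was the dimmest array and number 2 the brightest, so pairing cannot be told from shared brightness. In all 3 numbers the C5a sample was the higher for Spp1, Plaur and Timp2, as for 14.4% of all genes, and the lower for Mmp13 and F10, as for 10.8%. For Timp2 this order is not a measured direction in every number, since its probe was not well above background on untreated 1 or on either number 3 array. Under 5 other scalings such a common sign held in all 5 for Spp1, in 3 for F10, in 2 each for Mmp13 and Timp2 and in 0 for Plaur, and normexp turned all 3 signs of Mmp13. The 7 members had 4 positive and 3 negative differences with a median of 0.05, and all genes tested had 54.9% positive with a median of 0.04. With the 75th percentile taken over all probes, 86.8% of all genes and 6 of 7 members were positive, and the median over all genes moved to 0.40. Without scaling between arrays it was 0.32, with 83.0% of all genes and again 6 members positive.

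**Figure D1:**
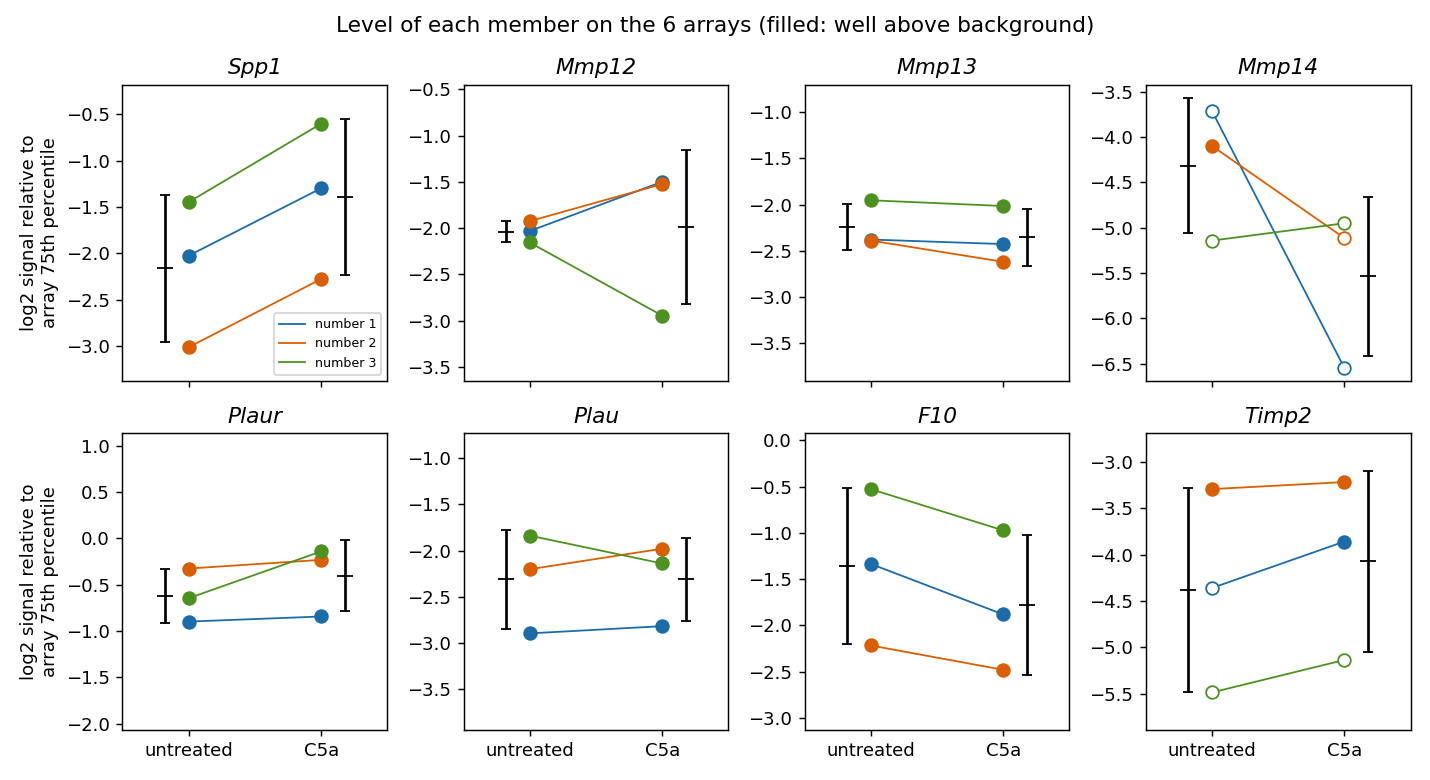
Log2 signal relative to the array's 75th percentile for each of the 8 genes in the untreated and C5a samples, with a line joining samples of 1 replicate number, filled points where the probe was well above background, and black bars for the mean and SD of 3 samples. The C5a point of Spp1 is higher on all 3 lines, by 0.73 to 0.85, while its groups overlap, and the number 3 line of Mmp12 runs down to -2.94.

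Spp1 had the largest difference of the 7 members. Untreated 1 to 3 had levels of -2.02, -3.01 and -1.45, and C5a 1 to 3 had levels of -1.30, -2.28 and -0.60, well above background on all 6 arrays. Number 3 was the highest and number 2 the lowest in both groups, and untreated 3 lay above C5a 2. The means were -2.16 ± 0.79 (SD) and -1.39 ± 0.84, a difference of 0.77 (SE 0.55, 95% interval -0.53 to 2.07, 1.71-fold), with an adjusted p of 0.9992 in limma. Within numbers 1, 2 and 3 the difference was 0.73, 0.74 and 0.85 (SD 0.07), while the means of the 3 numbers lay 1.62 apart. With the replicate number as a block the SE was 0.21 and the 95% interval 0.23 to 1.31 (limma unadjusted p = 0.0147, adjusted p = 0.926), and 47 is its rank by p among the 4488 genes. In bulk RNA, a change in the number of cells that make a transcript and a change in its amount per cell cannot be told apart.

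The unscaled processed signal of Spp1 gave the same order of groups. Untreated 1 to 3 gave 40.2, 56.9 and 39.9, against 103, 77.8 and 102 for C5a 1 to 3, so that on this scale, chosen after seeing the data, the groups did not overlap. Spp1 was the 1 member of 7 with this separation, and 0.49% of all 4488 genes had it on the higher side. Untreated 2 was the brightest array, so a gene whose unscaled signal follows array brightness cannot show this separation. The share of 0.49% is therefore no measure of how rare a C5a difference is. After scaling the share was 3.36%, and Spp1 was not among those genes. Within each group the scaled level of Spp1 was lower the brighter the array, with number 3 the dimmest array and number 2 the brightest in both groups. The part of array brightness in the spread between numbers was not tested. Without scaling the difference was 1.06 (SE 0.94, adjusted p = 0.9988 in limma), and within the numbers it was 1.36, 0.45 and 1.35. Under each of 6 ways of scaling, the C5a sample was the higher in all 3 numbers. With normexp background correction the differences within numbers were smaller, at 0.48, 0.09 and 0.25. Within the slide row that holds both groups, C5a 1 lay 0.86 above the mean of the 3 untreated samples.

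**Figure D2:**
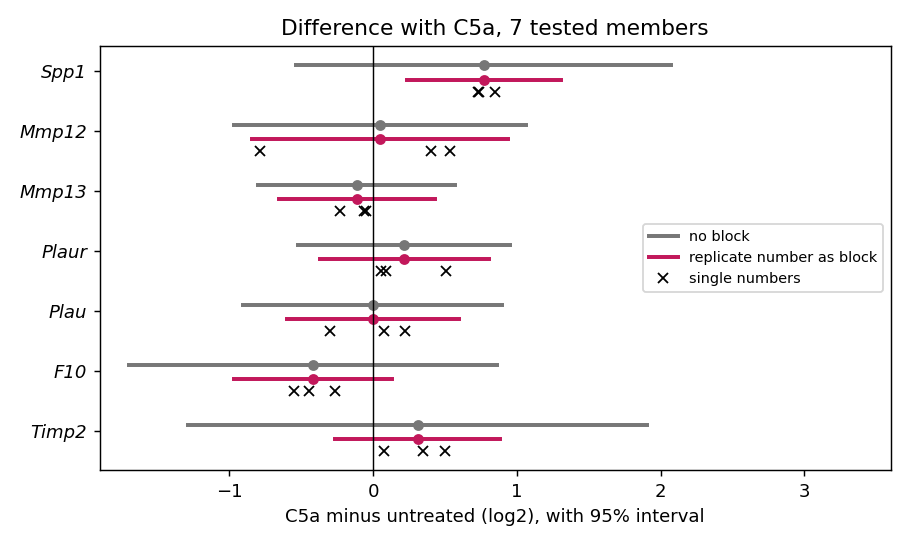
Log2 difference of C5a minus untreated for the 7 tested members with its 95% interval from limma, in grey without and in pink with the replicate number as a block, and crosses for the differences within single numbers. The blocked interval of Spp1, 0.23 to 1.31, lies above 0, and the other intervals include 0. The block assumes that the replicate numbers pair the samples.

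F10 had the negative difference of largest size among the members. Untreated 1 to 3 had levels of -1.33, -2.22 and -0.53, and C5a 1 to 3 had -1.88, -2.48 and -0.97, well above background on all 6 arrays. As with Spp1, number 3 was the highest and number 2 the lowest in both groups, and the groups overlapped. The means were -1.36 ± 0.84 and -1.78 ± 0.76, a difference of -0.42 (SE 0.54, 95% interval -1.70 to 0.87, limma adjusted p = 0.9992). Within numbers 1 to 3 the difference was -0.55, -0.26 and -0.45, and the blocked fit gave an SE of 0.21 and an interval of -0.97 to 0.13. Without untreated 3 the unblocked difference was -0.002, and without C5a 2 it was -0.07, while it was -0.85 without untreated 2 and -0.82 without C5a 3.

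The scaled level of F10 moved with the brightness of the array. Its unscaled signal was 64.8, 98.9 and 75.4 for untreated 1 to 3, against 68.9, 67.7 and 78.5 for C5a 1 to 3, a narrow span beside that of the arrays' 75th percentiles. Its scaled level was highest on untreated 3, the dimmest array, and lowest on C5a 2 and untreated 2, the brightest ones. Without scaling the differences within numbers were 0.09, -0.55 and 0.06, and with the 75th percentile over all probes they were -0.05, -0.38 and 0.26, so its common sign in the 3 numbers held under 4 of 6 scalings. The part of array brightness in this difference was not tested.

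**Figure D3:**
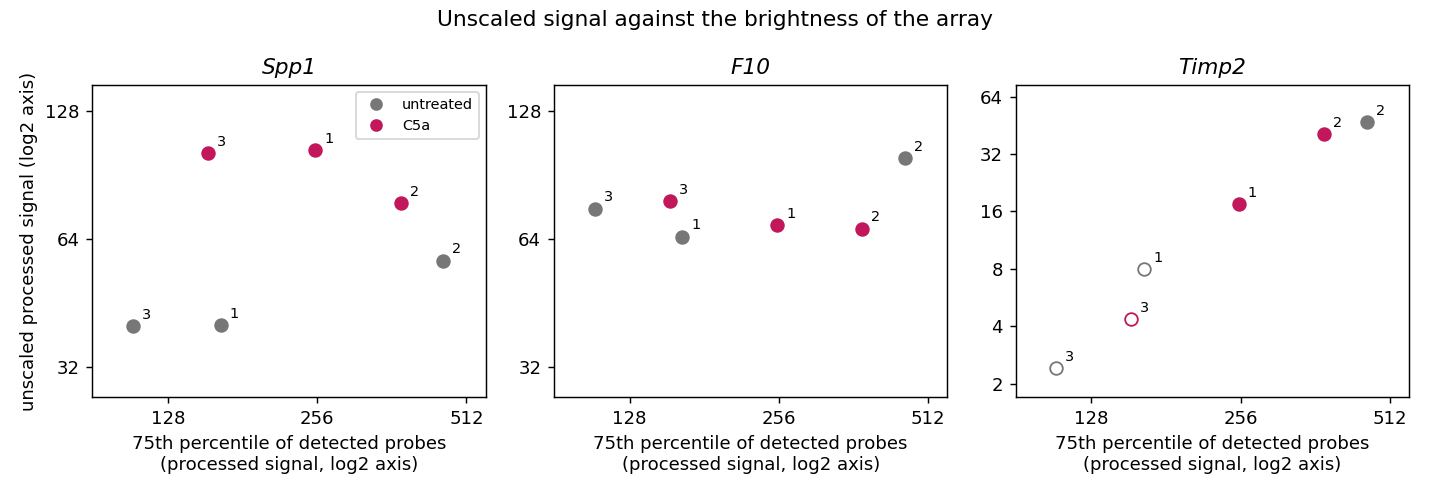
Unscaled processed signal of Spp1, F10 and Timp2 (vertical, log2 axis) against the 75th percentile of detected probes on the same array (horizontal, log2 axis), 1 point per array with its replicate number, open where the probe was not well above background. The 3 C5a points of Spp1, 77.8 to 103, lie above the 3 untreated ones, F10 is nearly level across arrays, and Timp2 climbs with array brightness.

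Of the metalloproteinases, Mmp12 and Mmp13 were measured on every array. Mmp12 (brightest probe) was at -2.03, -1.92 and -2.16 for untreated 1 to 3, and at -1.50, -1.52 and -2.94 for C5a 1 to 3. C5a 1 and C5a 2 lay above all untreated ones and C5a 3 below them all. The difference was 0.05 (SE 0.43, 95% interval -0.97 to 1.06), or 0.53, 0.40 and -0.79 within numbers 1 to 3, and 0.53 without C5a 3. The other probes of Mmp12 were well above background on 2 arrays and 1 array. Mmp13 had the smallest range over the 6 arrays of the 7 tested members, 0.67, at -2.38, -2.39 and -1.95 for untreated 1 to 3, and at -2.43, -2.62 and -2.02 for C5a 1 to 3. Its difference was -0.11 (SE 0.29, 95% interval -0.80 to 0.57, 0.924-fold), with -0.05, -0.23 and -0.06 within the numbers. The sign turned to 0.25 with the 75th percentile over all probes and to 0.14 with normexp.

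Mmp14 and Timp2, which act together on pro-Mmp2, were near the limit of the arrays. Mmp14 was well above background on untreated 2 alone, with levels of -3.71, -4.10 and -5.14 in untreated and -6.54, -5.11 and -4.95 in C5a samples (means -4.32 and -5.54). Since 1 of the 6 arrays measured it, no difference or fold is given and it was not tested. Timp2 was at -4.36, -3.29 and -5.49 in untreated and at -3.86, -3.21 and -5.14 in C5a samples, well above background on both number 2 arrays and on C5a 1. Its difference was 0.31 (SE 0.68, 95% interval -1.29 to 1.91), with 0.50, 0.08 and 0.35 within the numbers and a blocked SE of 0.22. Its unscaled signal ran from 2.42 on untreated 3, the dimmest array, to 46.9 on untreated 2, the brightest one. The part of array brightness in its level was not tested. A second Timp2 probe was well above background on C5a 2 alone.

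The urokinase pair was present in both groups. Plaur, the receptor, was at -0.90, -0.33 and -0.65 for untreated 1 to 3, and at -0.84, -0.23 and -0.14 for C5a 1 to 3. The C5a sample was the higher in each number, by 0.05, 0.09 and 0.51, and number 3 set most of the mean difference of 0.22 (SE 0.31, 95% interval -0.52 to 0.96, limma adjusted p = 0.9992). The difference was 0.08 without untreated 1, 0.085 without C5a 3, 0.37 without untreated 2 and 0.44 without C5a 1. Its sign turned to -0.22 when the slide row was added to the model, where the comparison rests on C5a 1 and the untreated arrays, all in row 1. With the median over detected probes as the scale, number 1 gave -0.01. Plau, the protease, was at -2.90, -2.20 and -1.84 in untreated and at -2.82, -1.98 and -2.14 in C5a samples, with number 1 the lowest in both groups. Its difference was -0.001 (SE 0.38, 95% interval -0.90 to 0.90), and within numbers 1 to 3 it was 0.08, 0.22 and -0.30. Changes of up to 1.87-fold in either direction are inside that interval. For a second Plau probe, no array gave a signal well above background.

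**Figure D4:**
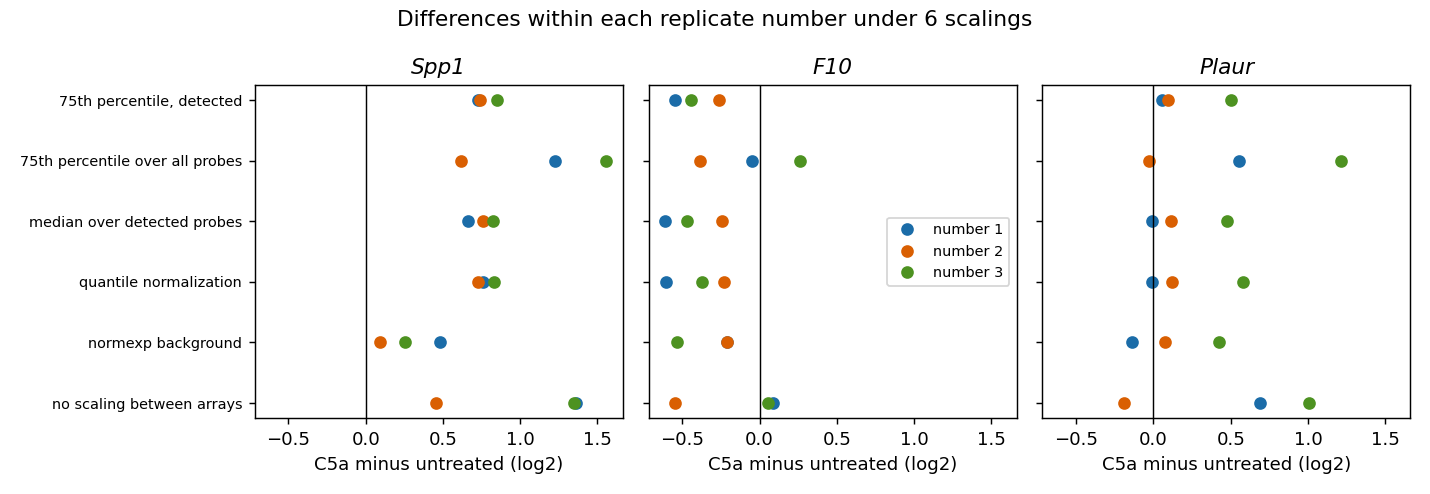
Log2 difference of C5a minus untreated within replicate numbers 1, 2 and 3 for Spp1, F10 and Plaur under 6 scalings, from the 75th percentile over detected probes at the top to no scaling at the bottom. All points of Spp1 lie above 0, from 0.09 to 1.56, while F10 and Plaur have points on both sides of 0 under some scalings.

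Most other genes of these systems were too dim to compare. Of 98 genes in 7 lists of related genes 97 were on the array, 27 were well above background on at least 1 array and 17 were tested, of which 0 passed in limma with or without the block (0 at an unadjusted p under 0.05 in either fit, where 2.34% of all 4488 genes stood without and 4.23% with the block, and 0% passed). They had 11 positive and 6 negative differences with a median of 0.11, where 54.9% of all genes were positive. With the 75th percentile over all probes 16 of the 17 were positive, where 86.8% of all genes were. Of 17 other metalloproteinase genes on the array, 14 reached that mark on 0 arrays, including the gelatinase genes Mmp2 and Mmp9. Mmp23 and Mmp25 reached it on 1 array each, and Mmp19 on all 6, with a difference of -0.14 (SE 0.43). Timp1, Timp3, Timp4 and Reck, inhibitors of these enzymes, reached it on 0 arrays, and Bsg, an inducer of metalloproteinases, on 1.

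Among ADAM and ADAMTS proteases, 4 of 16 were tested, with 2 positive and 2 negative differences. Adamdec1, a soluble ADAM-like protease of gut phagocytes, differed by 0.35 (SE 0.59) and Adam8 by 0.23 (SE 0.64), both well above background on all 6 arrays. Adam19 differed by -0.44 (SE 0.90) and the sheddase gene Adam10 by -0.10 (SE 0.27), each above that mark on 1 untreated and 2 C5a arrays.

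Receptors for plasminogen were measured while its other activator and inhibitors were not. Anxa2, a cell surface binder of plasminogen, differed by 0.43 (SE 0.46), Eno1 by 0.02 (SE 0.29), Plgrkt by 0.06 (SE 0.29) and Itgam by -0.23 (SE 0.46). S100a10, the partner of Anxa2, was well above background on 2 C5a arrays and 0 untreated arrays and was not tested. Its groups overlapped, with levels of -3.919, -5.672 and -4.219 in untreated and -3.895, -5.019 and -3.559 in C5a samples. Plat, the tissue-type activator, Plg itself and the inhibitor genes Serpine2, Serpinb2 and Serpinf2 stayed below that mark on all 6 arrays.

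Of 21 coagulation genes beside F10, 3 were tested. F2r, the thrombin receptor PAR1, differed by 0.73 (SE 0.55) and Vkorc1, an enzyme of the vitamin K cycle, by 0.62 (SE 0.43), both reaching that mark on 1 untreated and 2 C5a arrays. Procr, the endothelial protein C receptor, was measured on every array, with a difference of 0.19 (SE 0.26). F3, which encodes tissue factor, was well above background on 2 arrays, and F7, F2, F5, F9 and the carboxylase gene Ggcx on none.

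The receptors of osteopontin were led by Cd44, Itgav and Itgb1, each well above background on all 6 arrays. Cd44 differed by -0.06 (SE 0.27), Itgav by 0.32 (SE 0.38) and Itgb1 by 0.11 (SE 0.36). Itgb3, Itgb5, Itgb6, Itga5 and Itga8 reached it on 0 arrays. Of 16 matrix protein genes, Tgfbi and Lgals3, the galectin-3 gene, were the 2 measured, on all 6 arrays, at -0.10 (SE 0.41) and 0.15 (SE 0.40). Fn1, Vcan, Thbs1, Sparc and the collagen genes of the list reached it on 0 arrays.

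For the 6 members measured on all 6 arrays, the most similar of 1424 named genes were found by Pearson correlation of level over the arrays. These correlations describe 6 arrays that share 3 replicate numbers and differ in brightness, and have no test. Spp1 was nearest to Rpl37rt and Snap23 (r = 0.932 and 0.930). Mmp12 was nearest to Epn1, Ptk2b and Myh9 (0.981, 0.944 and 0.941), and Mmp13 to C3, Trim25 and Shisa5 (0.990, 0.980 and 0.976). Plaur was nearest to Ece1, Akap13 and Gch1 (0.962, 0.944 and 0.941), and Plau to Dennd5a, Ppp1r15a and Il1b (0.975, 0.973 and 0.970). F10 was nearest to Dexi, Ifngr2 and Vav1 (0.981, 0.978 and 0.976). Of these genes C3 encodes the central complement component, Il1b interleukin-1 beta and Ifngr2 a chain of the interferon gamma receptor.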

How the data were processed

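The 6 samples, 3 untreated and 3 with C5a, were each hybridised to a 1-colour Agilent array (design 074809). The deposited scanner files hold intensity values per spot from Feature Extraction 10.10.1.1, with background subtracted within the array and no scaling between arrays, per the file headers, and flags for spots well above background, which Feature Extraction scored 0 or 1 (another unit of the deposited files). The deposited series table holds log2 values; 99.0% of differences between its columns lay within 0.01 of those in log2 processed signal less the 75th percentile over all probes, while the baseline of each probe is unknown. Its column medians ran from -0.08 to 0.22.

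Control spots were left out, spots of a probe were averaged without those marked as outliers (112 to 138 per array), and 0 spots were saturated. A probe was kept where 3 or more of the 6 arrays measured it well above background (4958 probes). Genes were named by RefSeq accession (32994 of 56605 probes), and a probe without such a name stood as a gene of its own. Each gene took its brightest kept probe, which left 4488 genes, 3276 of them named. Since 48672 probes were well above background on 0 arrays, the 75th percentile was taken over probes detected on all arrays. limma 3.58.1 in R 4.3.3 (lmFit, eBayes, Benjamini-Hochberg, threshold 0.05) was fitted without and with the replicate number as a block and tested on simulated data. Same-numbered samples deviated together over genes (correlations 0.211, 0.269 and 0.384 for numbers 1 to 3), so the numbers were taken to pair the samples. That pairing comes from the labels' numbers and this check. In both groups number 3 was the dimmest and number 2 the brightest array, so the check cannot tell pairing from shared brightness. The blocked fits rest on this assumed pairing. All 6 arrays lie on 1 slide. The untreated arrays and C5a 1 are in its row 1, and C5a 2 and C5a 3 are in row 2, so row and C5a are partly confounded.

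The members and gene lists were chosen with earlier results of these data known. Named genes are all members, up to 4 tested genes per list of related genes by lowest p, the cell type markers measured on most arrays, and the 3 genes most similar to each member measured on all arrays. C5ar1, and listed genes and cell type markers that were too dim to test, are named as examples chosen after their values were seen. A few genes that these rules would name are not reported here. Alternatives changed the scaling, background correction, filter, probe rule, block, slide row and samples used.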

Additional observations from a re-analysis of the deposited data

How the results depend on the processing

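No member and no listed gene was called under any alternative. Over all genes, 0 were called under each of them except without the filter on dim probes. There 47 of 46522 genes, unnamed probes included, were called, 9 of them higher. Signs held for Spp1 and F10 under the 19 alternatives run, with Spp1 from 0.28 (normexp) to 1.21 and F10 from -0.85 to -0.002. Not all of these could turn a sign. The block, the changed filters and the mean of kept probes left each member's difference as it was (Spp1 0.77, F10 -0.42). The series table nearly repeated the 75th percentile over all probes (Spp1 1.13 in both). The slide row covariate repeated the value within slide row 1 (Spp1 0.864 in both). The replicate block changed no call. Some signs turned. Mmp13 was 0.248 with the 75th percentile over all probes, 0.25 with the series table, 0.14 with normexp and 0.17 without scaling. Plau was 0.362, 0.36, 0.073 and 0.283 in the same order and 0.016 with quantile normalization. Plaur was -0.221 with the slide row as a covariate, where Mmp12 was 0.538 and Plau -0.505 with their signs unchanged. The cause was not tested. Leaving out 1 sample at a time gave -0.198 to 0.525 for Mmp12, -0.283 to 0.03 for Mmp13, -0.292 to 0.252 for Plau and -0.244 to 0.854 for Timp2. The sign turned for Mmp12 without untreated 3, C5a 1 or C5a 2, for Mmp13 and Timp2 without untreated 3 or C5a 2, and for Plau without untreated 2, untreated 3 or C5a 1. Spp1 was 0.34 without untreated 2, 0.37 without C5a 3 and 1.21 without C5a 2. Plaur ran from 0.08 to 0.437. Timp2 has no value where all 6 arrays must measure a gene. The unscaled setting was added after seeing the data. Counting a probe as detected only where all its spots were changed nothing for the members, whose probes have 1 spot each. Dim signal limits Mmp14 and Timp2 most, and the median gene's 95% interval reached 1.83-fold to either side.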
